A study of Arabidopsis thaliana with 24 samples.

Results

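A set of 10 genes of the heat stress transcription network was taken by their gene identifiers: the 9 heat shock factor genes HSFA1A (AT4G17750), HSFA1D (AT1G32330), HSFA2 (AT2G26150), HSFA3 (AT5G03720), HSFA4A (AT4G18880), HSFA7A (AT3G51910), HSFB1 (AT4G36990), HSFB2A (AT5G62020) and HSFB2B (AT4G11660), and the coactivator gene MBF1C (AT3G24500). Of these 10 genes, 7 have a row in both count tables, among 11166 genes measured in high light (HL) and 10930 measured in low light (LL), of which 10349 are in both. HSFA1D, HSFA4A and HSFA7A have no row and their levels were not analysed here. The samples were whole 2-week-old *Ch1* seedlings of *Arabidopsis thaliana*, ecotype Col-0, which lack chlorophyllide a oxygenase and therefore chlorophyll b. They were equilibrated in water, moved to fresh water and kept in HL (1000 µE) or LL (30 µE) for 0, 1, 2 and 4 h, with 3 libraries in each of the 8 groups. All groups carry the mutation, there was no wild type among the samples analysed here, and HL and LL each have 0 h libraries of their own. The growth light given in the methods lies between HL and LL, and no group was kept at it over the same hours. In a comparison with 0 h, light, transfer and time therefore cannot be told apart. CAO, the gene mutated in *Ch1*, has no row and was not analysed here. The labels and the methods give growth temperatures that are not the same, and neither gives one for the light incubation.

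Heat shock factors are DNA-binding proteins that recognise heat shock elements, inverted repeats of a short GAA unit, and switch on chaperone genes. Class A factors carry an activation domain, whereas class B factors lack it and several of them repress transcription. MBF1C is a multiprotein bridging factor, a small coactivator known in *Arabidopsis* for its part in heat tolerance, and HSFA2 and MBF1C are both known as early heat-induced genes of leaves.

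Because factors of this family are known to act on one another's genes, the DNA before the start codon of all 10 genes was searched for the element. The motifs were GAANNTTC and TTCNNGAA (2 units, each its own reverse complement, so that one strand covers both), and each of these lengthened by 1 more unit at the same spacing. Within 1000 bases before the annotated start codon in the TAIR10.1 assembly, a 3-unit match was found in 4 of the 10 genes (HSFA2, HSFA7A, HSFB2A and HSFB2B), against 2.02% of 27435 genes. A 2-unit match was found in 9 of the 10, against 54.4% of those genes, and HSFA3 was the one without. Within 250 bases before the annotated gene start, a 3-unit match was found only for HSFA2 and HSFA7A, against 0.386% of 27437 genes. For the 4 measured genes with the largest rises described below, every 3-unit match is shown, and for MBF1C, which has none, every 2-unit match, since these show how the genes differ in the longer form of the element. The further 2-unit matches, 3 in HSFA2, 1 in HSFB2A and 1 in HSFB2B, are not shown. Each site is given 5′ to 3′ on the strand of the gene, which is the plus strand for all 4, with the matching units in capitals and 8 bases on either side.
HSFA2 at chr2:11135528-11135556, 88 bases before the gene start: ttagtaacGAAGTTTCTGGAAcattgtct
HSFB2A at chr5:24916058-24916086, in the annotated gene before the start codon: ctccatagGAAGTTTCTTGAAgcctaaaa
HSFB2B at chr4:7042450-7042478, in the annotated gene before the start codon: aaaaaagaGAAACTTCTGGAAaaagaaaa
HSFB2B at chr4:7042670-7042698, in the annotated gene before the start codon: tcctctcaGAACATTCTGGAActtcacaa
MBF1C at chr3:8917859-8917882, 400 bases before the gene start: acgacgcgGAACCTTCtccggtgg
MBF1C at chr3:8918360-8918383, in the annotated gene before the start codon: taattcggTTCTGGAAgtaaggga
MBF1C at chr3:8918572-8918595, in the annotated gene before the start codon: atctctaaGAACGTTCcagagacg
Thus the 3-unit form was present in HSFA2, HSFB2A and HSFB2B, and not in MBF1C, whereas the 2-unit form was present in all 4. A match is a description of the letters in this window and not a binding site, and no binding was measured.

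**Figure D1:**
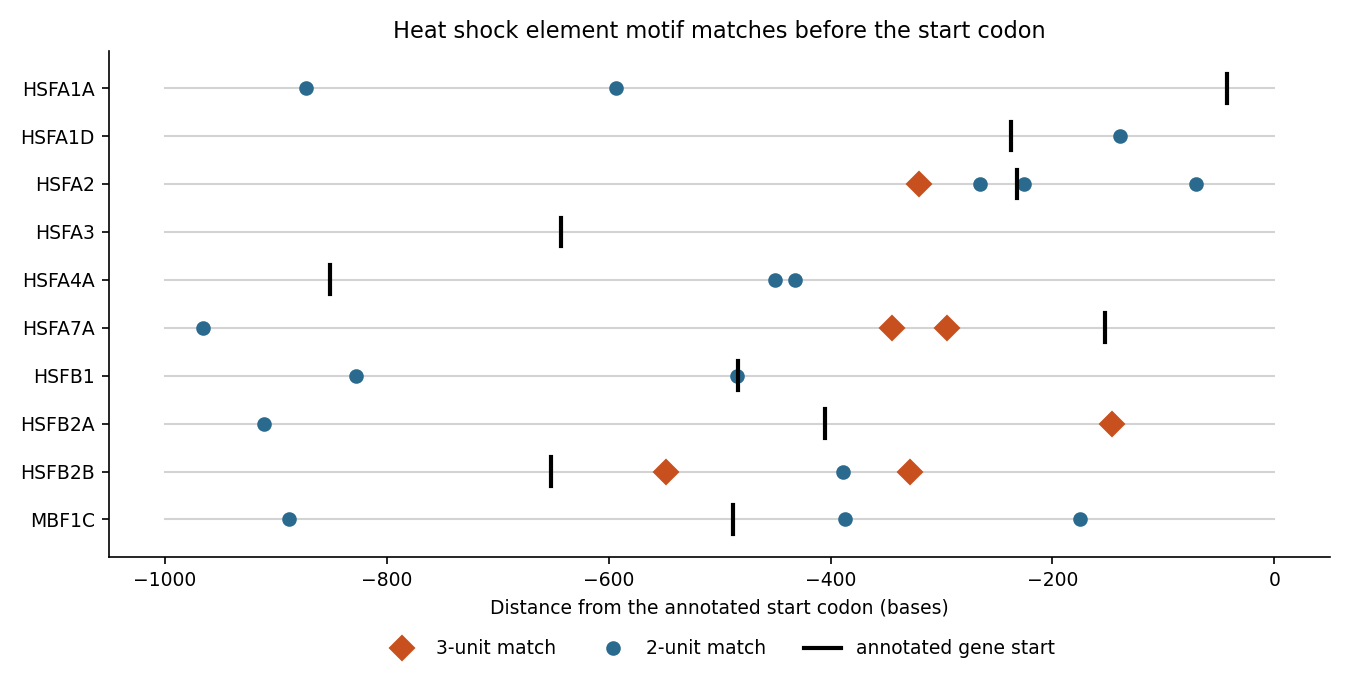
Positions of heat shock element matches (3-unit as diamonds, 2-unit as circles) in the 1000 bases before the annotated start codon of the 10 genes, with the annotated gene start as a black bar and the distance in bases on the horizontal axis. Matches of 3 units stand in HSFA2, HSFA7A, HSFB2A and HSFB2B, and HSFA3 has no match of either form.

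MARS-seq reads the 3′ end of each transcript. Levels are normalised read counts (CPM, scaled by TMM on one scale over the 24 libraries). Library totals ran from 1163870 to 2070855 counts, and 1 count was therefore worth less than 1 CPM, which limits the precision for HSFA1A and HSFA2. Each change is a log2 ratio with its standard error (SE) from the quasi-likelihood test of edgeR, and a gene was called when its Benjamini-Hochberg adjusted p was under 0.05 and its change at least 2-fold. The summed level of 5 shoot markers (CA1, RBCS1A, RCA, CAB1 and PETE2) was 16100 to 45900 CPM over the libraries, and that of the 5 root markers found of 6 (PYK10, BGLU21, BGLU22, CASP1 and TIP2;3) was 60.6 to 236 CPM. The shoot sum moved with time: in HL it lay between 37000 and 41500 CPM at 0 h, 23200 and 31200 CPM at 1 h, 18700 and 20400 CPM at 2 h, and 25800 and 29500 CPM at 4 h. In LL it lay between 40200 and 45900 CPM at 0 h, 29800 and 33100 CPM at 1 h, 20200 and 21500 CPM at 2 h, and 16100 and 19700 CPM at 4 h. The shoot markers did not move as a set in HL. At 4 h of HL the log2 fold change from 0 h was -2.97 for CAB1, a light-harvesting protein gene. It was 0.61 for CA1, 0.51 for RBCS1A, 0.50 for RCA and 0.08 for PETE2. At 4 h of LL all 5 were below 0: -1.96 for CA1, -1.10 for RBCS1A, -1.04 for RCA, -1.98 for CAB1 and -0.57 for PETE2. The change in HL minus that in LL at 4 h was called for CA1 (2.60), RBCS1A (1.64) and RCA (1.57). It was -0.97 for CAB1 and 0.68 for PETE2, neither of them called. The root sum was lowest at 4 h, at 60.6 to 77.4 CPM in HL and 66 to 84.8 CPM in LL. The root markers did not move as a set either. At 4 h of HL the log2 fold change from 0 h was -1.78 for TIP2;3 and -1.01 for CASP1, both called. It was -0.04 for PYK10, 0.51 for BGLU21 and 0.33 for BGLU22, none of them called. At 4 h of LL only CASP1 was called, as lower. The other values there were -0.64 for PYK10, 0.58 for BGLU21, -0.82 for BGLU22 and -0.47 for TIP2;3. The part of these shifts in the results below was not tested, and in whole seedlings fewer cells of a type and less RNA per cell cannot be told apart.

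At 1 h MBF1C, HSFA2 and HSFB2B were higher than at 0 h in HL and in LL, and HSFB2A was higher in LL. By 4 h MBF1C and HSFB2B were still higher in HL and HSFA3 was lower there, whereas no gene of the 7 was called in LL. In HL, 3 of the 7 genes were called at 1 h (9.01% of all genes tested were called), 3 at 2 h (11.9%) and 3 at 4 h (15.7%). In LL it was 4 at 1 h (10.4%), 1 at 2 h (12.5%) and 0 at 4 h (16.5%), where 2 had an unadjusted p under 0.05 and DESeq2 also called 0. Between successive times of HL, edgeR called 0 of the 7 at 2 h against 1 h (0.618% of all genes; 1 at an unadjusted p under 0.05 and 0 by DESeq2) and 1 at 4 h against 2 h (2.18%). Between successive times of LL, 3 of the 7 were lower at 2 h than at 1 h (0.787% of all genes were called; DESeq2 called 2 of the 7) and 1 was lower at 4 h than at 2 h (1.18%). The comparisons of one light level with 0 h share their 0 h libraries. The median log2 fold change of the 7 genes at 1 h was 0.98 in HL and 1.36 in LL, and that of all genes tested was 0 in HL and -0.04 in LL.

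**Figure D2:**
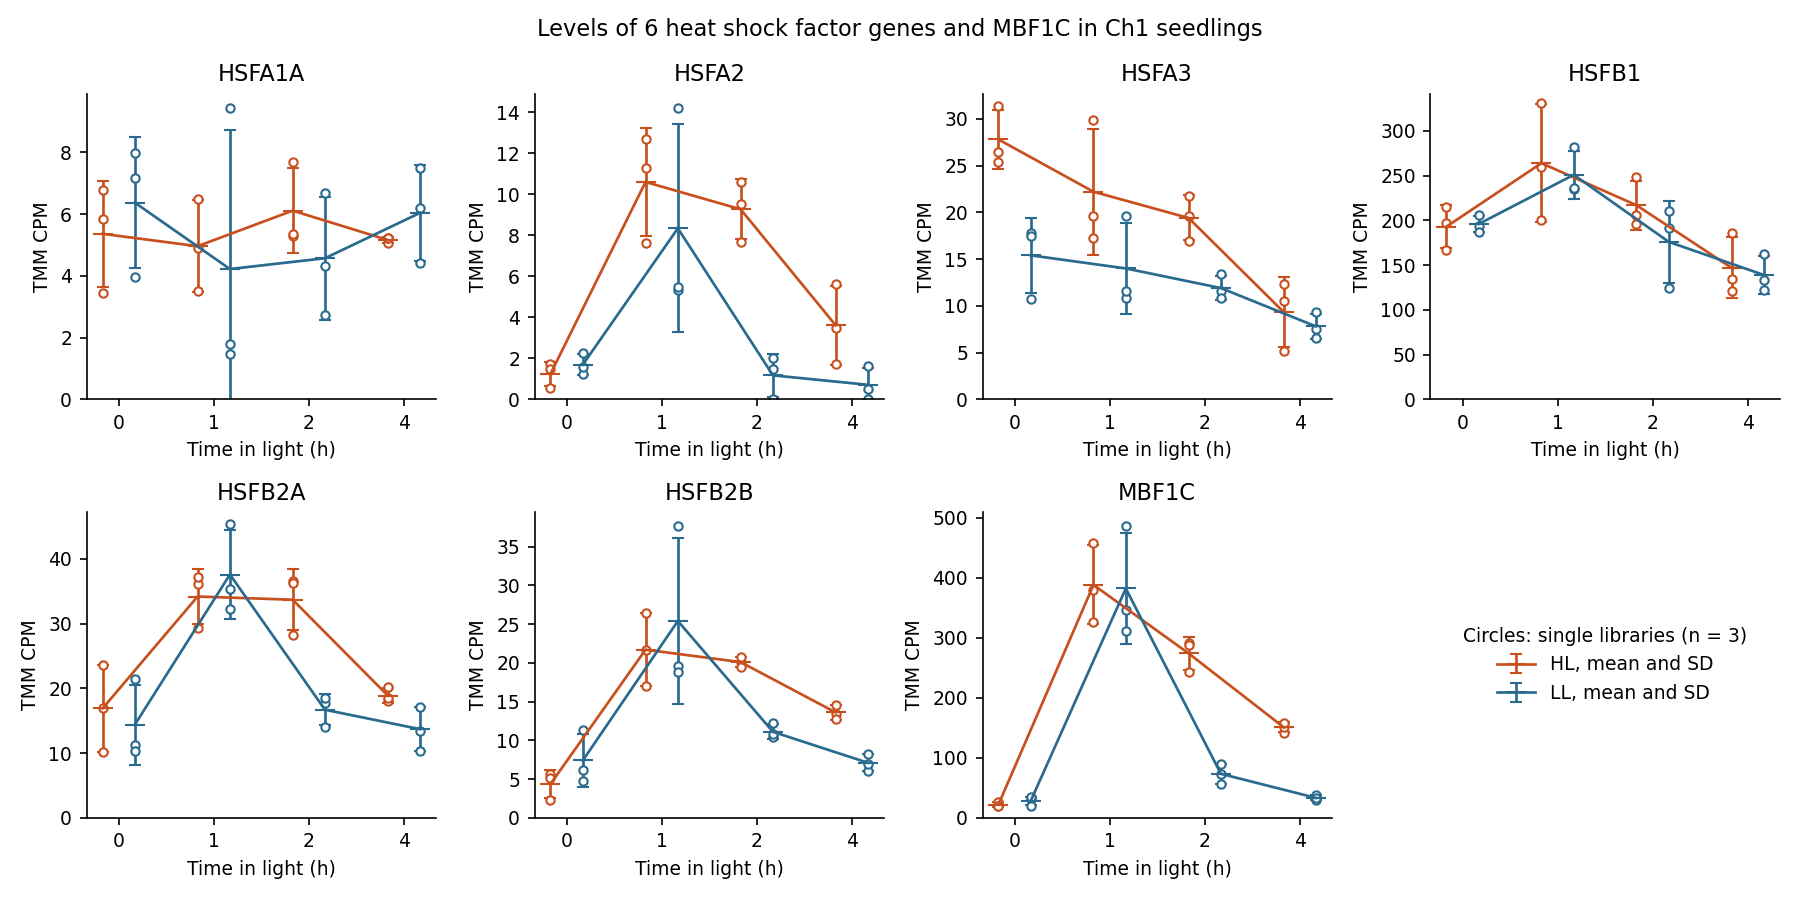
Level of each of the 7 measured genes (TMM CPM, vertical axes from 0) at 0, 1, 2 and 4 h, with HL in orange and LL in blue, circles for single libraries and lines with bars for the mean and SD of 3 libraries. The times are spaced evenly, and MBF1C stands at 388 CPM in HL and 382 CPM in LL at 1 h but at 151 and 33.2 CPM at 4 h.

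MBF1C showed the largest rise of the 7 genes, and the smallest p of all 11166 genes at 1 h of HL. In HL its libraries held 26.6, 20.5 and 19.0 CPM at 0 h, 327, 458 and 379 CPM at 1 h, 291, 288 and 243 CPM at 2 h, and 142, 152 and 158 CPM at 4 h. In LL they held 30.7, 33.9 and 19.9 CPM at 0 h, 486, 346 and 312 CPM at 1 h, 90.4, 57.1 and 72.2 CPM at 2 h, and 37.4, 29.0 and 33.2 CPM at 4 h. Thus all libraries at 1 h lay far above those at 0 h at both light levels, and from 2 h on every HL library lay above every LL library. The log2 fold change in HL was 4.12 ± 0.179 (SE) at 1 h (17.4-fold, adjusted p = 3.14e-11), 3.60 ± 0.178 at 2 h (3.69e-11) and 2.73 ± 0.178 at 4 h (6.97e-10, edgeR). In LL it was 3.74 ± 0.221 at 1 h (13.4-fold, adjusted p = 3.82e-09, rank 4 of all genes by p), 1.37 ± 0.229 at 2 h (0.000205) and 0.21 ± 0.242 at 4 h (0.567). At 4 h the MBF1C libraries of HL stood 6.63-fold above those at 0 h, and the LL libraries overlapped with those at 0 h. Between 1 and 2 h it fell by 2.37 on the log2 scale in LL (adjusted p = 1.2e-06, edgeR). The difference over the same hour in HL was -0.53 with an adjusted p of 0.0728, and its libraries at 2 h all lay below those at 1 h. Between 2 and 4 h the HL difference of -0.87 passed the p threshold (adjusted p = 0.00115) at less than 2-fold, with all libraries at 4 h below those at 2 h. Over the same time it fell by 1.17 in LL (adjusted p = 0.00578), and without LL 2 h replicate 1 this value was -0.99, just under the 2-fold limit.

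Ordered by mean level, MBF1C ran from 388 CPM (SD 65.8) at 1 h of HL over 382 (92.3) at 1 h of LL, 274 (27.0) at 2 h of HL, 151 (7.79) at 4 h of HL, 73.3 (16.7) at 2 h of LL, 33.2 (4.22) at 4 h of LL and 28.2 (7.31) at 0 h of LL to 22.0 (4.01) at 0 h of HL. The libraries of neighbouring groups overlapped at the top of this order (HL and LL at 1 h) and at its bottom (LL at 4 h, LL at 0 h and HL at 0 h), and were separate in between.

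The comparison of the light levels asks whether a gene changed more in HL than in LL, and it used 24 libraries and the 10349 shared genes. For MBF1C the HL change minus the LL change was 0.39 ± 0.294 at 1 h (adjusted p = 0.614), 2.27 ± 0.302 at 2 h (0.000214, rank 2 of all genes by p) and 2.55 ± 0.311 at 4 h (1.64e-05, edgeR). Set against LL at the same time, the MBF1C level in HL was 1.01-fold at 1 h (adjusted p = 0.996), 3.73-fold at 2 h (2.87e-07) and 4.54-fold at 4 h (2.06e-08). Over the 7 genes, edgeR called 0 differences in change at 1 h (0.763% of all genes; 0 at an unadjusted p under 0.05 and 0 by DESeq2), 1 at 2 h (0.995%) and 1 at 4 h (2.92%), both times MBF1C. Set side by side at one time, HL and LL differed for 0 of the 7 at 0 h (4.48%) and for 0 at 1 h (0.406%), with 1 gene at an unadjusted p under 0.05 each time and 0 by DESeq2. They differed for 3 at 2 h (2.95%) and for 1 at 4 h (2.91%), and all of these were higher in HL. Of all genes tested at 0 h, 4.14% were lower in HL and 0.348% higher, so the starting libraries of HL and LL were not alike.

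**Figure D3:**
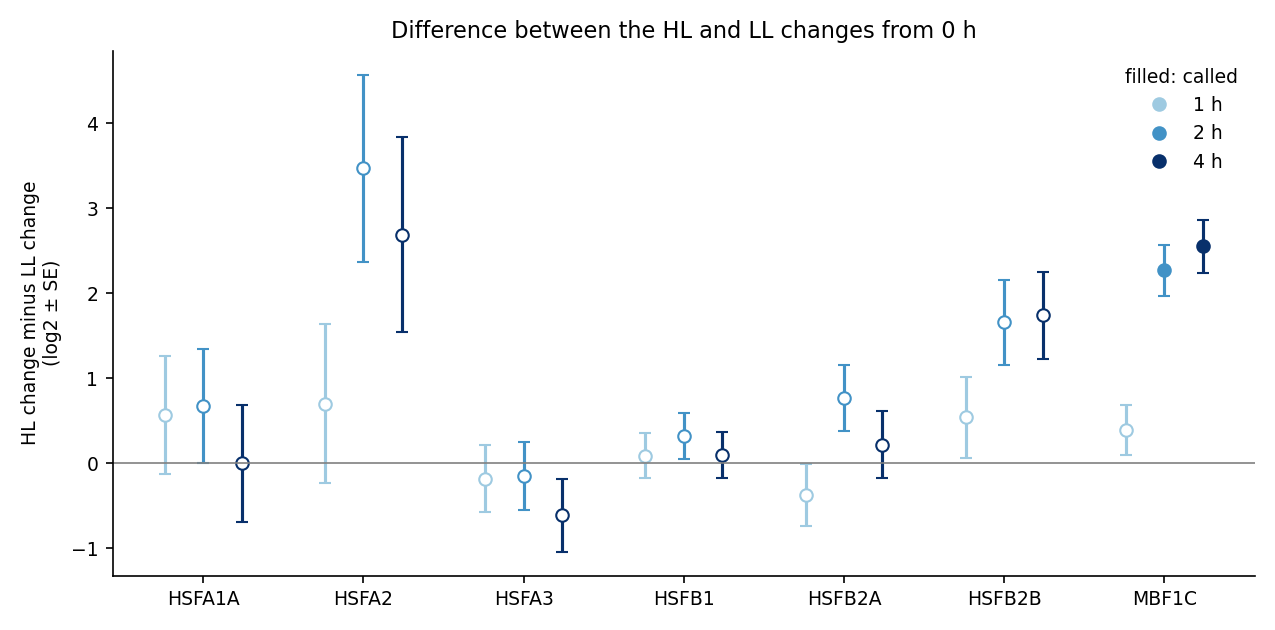
HL change minus LL change from 0 h for each of the 7 genes at 1, 2 and 4 h (log2 scale, bars show the SE, filled points were called). MBF1C at 2 and 4 h carries the filled points, and HSFA2 and HSFB2B lie above 0 with wider bars and are not filled.

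HSFA2, a class A factor that amplifies and prolongs the heat response, had few counts and a similar time course. In HL its libraries held 1.70, 1.46 and 0.577 CPM at 0 h, 7.62, 11.3 and 12.7 CPM at 1 h, 10.6, 9.51 and 7.69 CPM at 2 h, and 5.61, 3.49 and 1.74 CPM at 4 h. In LL they held 1.23, 2.26 and 1.59 CPM at 0 h, 14.2, 5.34 and 5.49 CPM at 1 h, 2.04, 1.48 and 0 CPM at 2 h, and 0, 0.517 and 1.61 CPM at 4 h. At 1 h the libraries of both light levels lay above their own 0 h libraries, LL replicate 1 stood highest, and at 2 h HL and LL did not overlap. These levels rest on 1 to 26 counts per library in HL and 0 to 29 in LL. In HL the log2 fold change was 3.03 ± 0.491 at 1 h (adjusted p = 0.000163), 2.81 ± 0.503 at 2 h (0.000331) and 1.47 ± 0.595 at 4 h (0.0771, edgeR). In LL it was 2.33 ± 0.650 at 1 h (adjusted p = 0.016), -0.61 ± 0.943 at 2 h (0.696) and -1.19 ± 0.975 at 4 h (0.395). The call at 1 h of LL was lost without LL 1 h replicate 1 (1.62, adjusted p = 0.19) and without LL 0 h replicate 1 (2.14, 0.0635). At 2 h HSFA2 was 8.09-fold higher in HL than in LL (log2 3.02 ± 0.624, adjusted p = 0.00337, edgeR). The HL change minus the LL change at 2 h was 3.47 ± 1.10, with an adjusted p of 0.126. Between 1 and 2 h of LL it fell by 2.95 (adjusted p = 0.0375), a call that was lost without any one of the LL libraries at 1 h or without LL 2 h replicate 1 or 3 (adjusted p from 0.0525 to 0.347), and DESeq2 gave it no adjusted p. Between 2 and 4 h of HL the value was -1.34 ± 0.399 with an adjusted p of 0.0555, and 0.0375 without HL 4 h replicate 1. The value at 4 h of HL against 0 h was called without HL 4 h replicate 3 (1.79, adjusted p = 0.0327). At 4 h HL and LL differed by 2.24 ± 0.756 (adjusted p = 0.0755), which was called without HL 4 h replicate 3 (2.56, 0.0423) or without LL 4 h replicate 3 (3.44, 0.043).

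**Figure D4:**
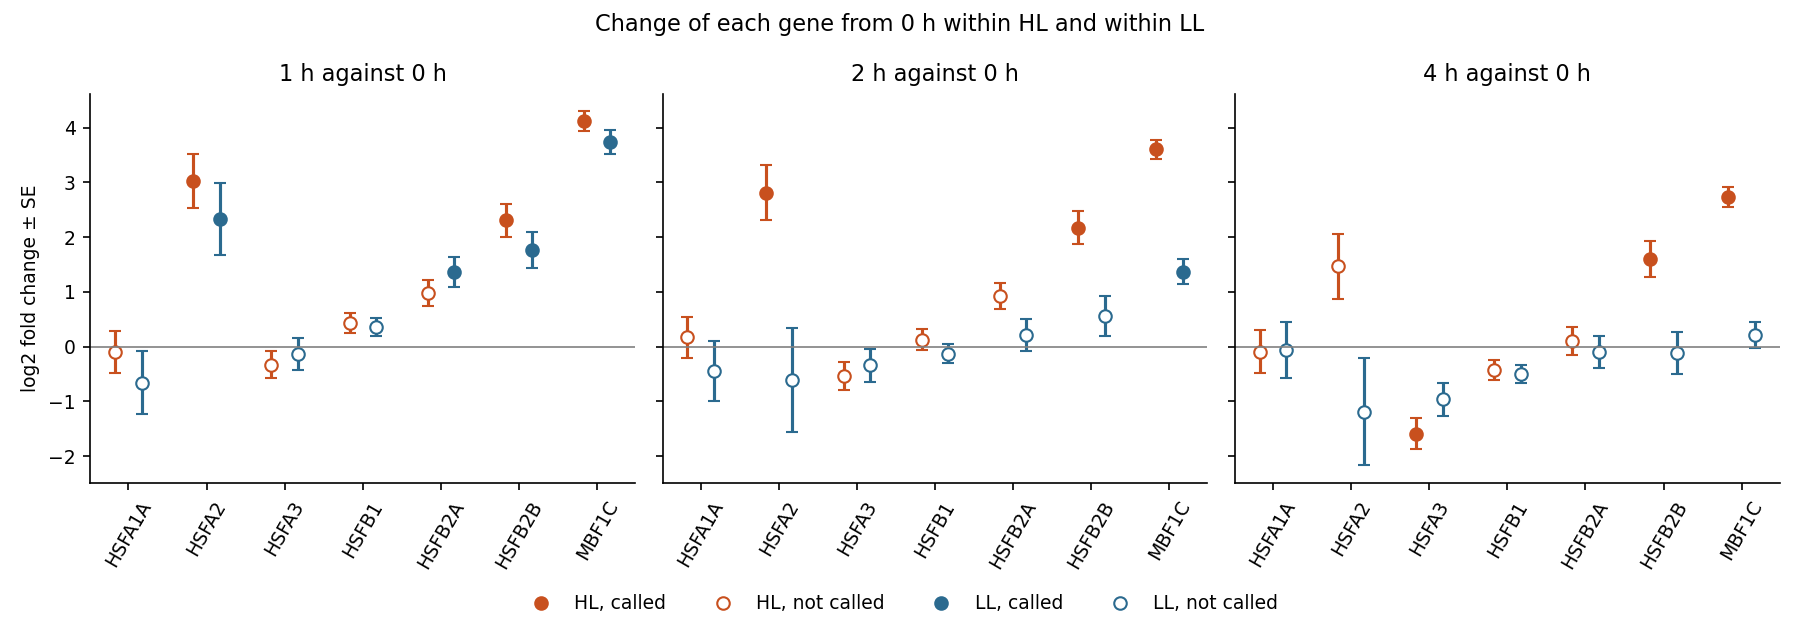
Log2 fold change from 0 h with its SE for the 7 genes at 1, 2 and 4 h, with HL in orange left of LL in blue and filled points for called changes. MBF1C, HSFA2 and HSFB2B are filled at 1 h at both light levels, and at 4 h the filled points are MBF1C, HSFB2B and HSFA3 in HL.

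HSFB2B and HSFB2A encode class B factors, which lack the activation domain and act as repressors of heat-inducible genes. In HL the HSFB2B libraries held 5.65, 5.11 and 2.31 CPM at 0 h, 17.0, 21.6 and 26.4 CPM at 1 h, 20.1, 20.8 and 19.5 CPM at 2 h, and 14.6, 13.4 and 12.7 CPM at 4 h. In LL they held 6.14, 11.3 and 4.78 CPM at 0 h, 37.7, 19.6 and 18.8 CPM at 1 h, 12.2, 10.4 and 10.8 CPM at 2 h, and 6.05, 8.27 and 6.97 CPM at 4 h. In HL the libraries at 1, 2 and 4 h all lay above those at 0 h, whereas in LL only the 1 h libraries did. The log2 fold change in HL was 2.31 ± 0.299 at 1 h (adjusted p = 1.41e-05), 2.17 ± 0.303 at 2 h (2.12e-05) and 1.60 ± 0.321 at 4 h (0.000797, edgeR). In LL it was 1.77 ± 0.332 at 1 h (adjusted p = 0.000888), 0.56 ± 0.369 at 2 h (0.311) and -0.11 ± 0.384 at 4 h (0.869). HSFB2B was thus 3.03-fold above its 0 h level at 4 h of HL. The HL change minus the LL change was 1.66 ± 0.498 at 2 h (adjusted p = 0.106) and 1.74 ± 0.515 at 4 h (0.0519), so a difference between the light levels was not called. That value passed when genes with low counts were removed by filterByExpr (1.73, adjusted p = 0.0484), without HL 0 h replicate 1 (1.98, 0.0482) and without LL 0 h replicate 3 (1.91, 0.0364). At 2 and 4 h every HL library of HSFB2B lay above every LL library, with log2 differences of 0.85 ± 0.293 (adjusted p = 0.0881) and 0.93 ± 0.321 (0.0861, edgeR).

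HSFB2A in HL held 17.0, 10.2 and 23.6 CPM at 0 h, 29.3, 36.2 and 37.2 CPM at 1 h, 36.6, 36.3 and 28.2 CPM at 2 h, and 20.2, 18.0 and 18.5 CPM at 4 h. In LL it held 21.5, 11.3 and 10.4 CPM at 0 h, 35.3, 45.4 and 32.2 CPM at 1 h, 17.7, 18.5 and 14.0 CPM at 2 h, and 10.4, 13.4 and 17.1 CPM at 4 h. The libraries stood above 0 h at 1 and 2 h in HL and at 1 h in LL, and overlapped with 0 h at 4 h of both. The rise at 1 h of LL was called (log2 1.36 ± 0.270, 2.57-fold, adjusted p = 0.00144). In HL the values at 1 h (0.98 ± 0.234, adjusted p = 0.00534) and 2 h (0.93 ± 0.234, 0.00653, edgeR) passed the p threshold and missed the 2-fold limit, which they passed without HL 0 h replicate 3 (1.29 and 1.24). The limit was also passed at 1 h without HL 1 h replicate 1 (1.09) and at 2 h without HL 2 h replicate 3 (1.04). The 1 h values of HL and LL were not shown to differ, with an HL change minus LL change of -0.37 ± 0.367 (adjusted p = 0.728). At 2 h HSFB2A was 2.02-fold higher in HL than in LL (adjusted p = 0.0163), a call that was lost without HL 2 h replicate 1 (0.0608), without HL 2 h replicate 2 (0.0615) or without LL 2 h replicate 3 (0.102). Between 1 and 2 h of LL it fell by 1.15 (adjusted p = 0.027), also lost without any one of the LL libraries at 1 h or without LL 2 h replicate 1 or 3 (adjusted p from 0.0544 to 0.157). Without any one of those 5 libraries edgeR called 1 gene of the 7 between 1 and 2 h of LL in place of 3, and that gene was MBF1C.

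HSFB1, a class B factor that represses heat genes and also binds the TL1 element of defence genes, was called in none of the 17 comparisons. Its mean level in HL was 193 CPM (SD 24) at 0 h, 264 (65.8) at 1 h, 217 (27.6) at 2 h and 147 (34.0) at 4 h. In LL it was 196 CPM (9.29) at 0 h, 251 (26.6) at 1 h, 176 (45.6) at 2 h and 139 (21.6) at 4 h. Both courses had their highest mean at 1 h and their lowest at 4 h, and the 1 h value was 0.44 ± 0.183 in HL (adjusted p = 0.108) and 0.36 ± 0.169 in LL (0.145, edgeR). At 4 h of LL the value of -0.50 ± 0.171 passed the p threshold (0.0362) at less than 2-fold, with all 3 libraries (122, 133 and 163 CPM) below those at 0 h (206, 194 and 187 CPM). At 4 h of HL it was -0.43 ± 0.186, with an adjusted p of 0.0996.

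HSFA1A, one of the constitutive master factors that start the heat response, was measured at 2 to 15 counts per library. Its group means lay between 4.22 CPM (SD 4.50) at 1 h of LL and 6.37 CPM (2.13) at 0 h of LL, and in HL between 4.96 CPM (1.49) at 1 h and 6.11 CPM (1.37) at 2 h. No comparison of HSFA1A was called, and the SE of its log2 changes, 0.371 to 0.695, limits what could be seen at this depth. The LL libraries at 1 h spread from 1.47 and 1.78 CPM to 9.42 CPM, and without the highest of them, replicate 3, the log2 fold change from 0 h was -1.93 with an adjusted p of 0.0419.

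HSFA3, a class A factor placed downstream of the drought and heat factors DREB2A and DREB2C, was lower at 4 h of HL. In HL its libraries held 25.4, 31.4 and 26.5 CPM at 0 h, 29.9, 17.3 and 19.6 CPM at 1 h, 21.7, 19.6 and 16.9 CPM at 2 h, and 12.3, 10.5 and 5.21 CPM at 4 h. In LL they held 17.8, 10.7 and 17.5 CPM at 0 h, 10.8, 11.6 and 19.6 CPM at 1 h, 11.6, 13.4 and 10.8 CPM at 2 h, and 6.60, 9.31 and 7.50 CPM at 4 h. At 1 h its log2 fold change was -0.33 in HL (adjusted p = 0.416) and -0.14 in LL (0.789, edgeR), neither of them called. At 4 h all libraries lay below those at 0 h at both light levels, and HSFA3 was the one gene of the 7 that was called lower than at 0 h. Its log2 fold change at 4 h was -1.59 ± 0.283 in HL (3.02-fold lower, adjusted p = 0.000236) and -0.96 ± 0.306 in LL (0.0249, edgeR), the second just under the 2-fold limit. In LL it passed that limit when LL 0 h replicate 2 (-1.17) or LL 4 h replicate 2 (-1.10) was left out, which gave 1 gene of the 7 called in place of 0. Between 2 and 4 h of HL it fell by 1.05 (adjusted p = 0.0388), a call lost without any one of the HL libraries at 2 h or without HL 4 h replicate 2 or 3 (adjusted p from 0.0559 to 0.154), which gave 0 genes called in place of 1. Without HL 4 h replicate 1, 2 genes were called, HSFA3 and HSFA2. The starting levels were not called as different, but at 0 h the HL libraries all lay above the LL libraries. Their means were 27.8 CPM (SD 3.18) in HL and 15.4 CPM (4.01) in LL (log2 0.86 ± 0.269, adjusted p = 0.0534, edgeR). At 4 h the means were 9.34 CPM (3.70) in HL and 7.80 CPM (1.38) in LL, and the libraries overlapped. The HL change minus the LL change at 4 h was -0.61 ± 0.429, with an adjusted p of 0.497.

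Across the 8 group means, taken as log2(CPM + 1), the 4 genes that rose had courses like one another, as a description of 8 points that share libraries. These 4 were grouped by their rise in the same libraries, so part of the likeness follows from that choice. Pearson's r was 0.981 between HSFB2B and MBF1C, 0.950 between HSFA2 and HSFB2A, 0.932 between HSFB2A and MBF1C, 0.913 between HSFA2 and MBF1C, 0.890 between HSFB2A and HSFB2B and 0.870 between HSFA2 and HSFB2B. HSFA3 had an r of 0.370 with HSFA2, 0.357 with HSFB2A, 0.0697 with MBF1C and -0.0346 with HSFB2B. HSFB1 had 0.783 with HSFB2A, 0.759 with HSFA2, 0.705 with HSFA3, 0.585 with MBF1C and 0.555 with HSFB2B. HSFA1A had -0.295 with HSFA2, -0.429 with HSFB1, -0.484 with HSFB2B, -0.492 with MBF1C, -0.501 with HSFB2A and 0.0202 with HSFA3. Among genes averaging 10 counts or more, those most like MBF1C were AT1G26800 (r = 0.989), AT2G20560 (0.986), NF-YC1 (0.982), HSFB2B (0.981) and AT1G14200 (0.975). AT1G26800 averaged 28.4, 117, 102 and 63.1 CPM at 0, 1, 2 and 4 h of HL, and 30.7, 127, 49.4 and 39.2 CPM at the same times of LL. These closest genes were picked from 7359, and r does not weigh the size of a change. At 0 and 1 h of HL AT2G20560 averaged 12.7 and 102 CPM, but NF-YC1 73 and 95 CPM. Most like HSFB2B, after MBF1C, were AT1G26800 (0.978), AT3G11690 (0.976), NAC046 (0.974) and Phox2 (0.968). For HSFA2 they were AT1G59860 (0.990), HSP81-3 (0.979), AT3G52060 (0.972), AT1G14200 (0.965) and HSP101 (0.960), and AT1G59860 and HSP101 encode a small heat shock protein and a disaggregase. Most like HSFB2A were HSP101 (0.987), AT5G01740 (0.965), AT2G27580 (0.965), AT1G14200 (0.963) and AT3G26720 (0.957). The genes most like HSFA3 were others, namely SEC61 BETA (0.988), AT4G24140 (0.965), EDA4 (0.965), RDUF1 (0.961) and RPN10 (0.960).

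Of 14 further heat shock factor and MBF1 genes, 6 were tested in HL and 6 in LL, and the one called against 0 h was HSFC1, the class C factor, which was lower at 1 h (log2 -1.43, adjusted p = 0.00187) and 2 h of HL (-1.39, 0.00167, edgeR). That is 1 of 6 at 1 h and at 2 h of HL, beside 9.01% and 11.9% called over all genes. HSFC1 averaged 17.5, 6.32, 6.68 and 17.0 CPM at 0, 1, 2 and 4 h of HL, and 8.65, 4.56, 7.05 and 13 CPM at the same times of LL. Its HL change minus LL change was not called at 1 h (-0.53, adjusted p = 0.733) or 2 h (-1.02, 0.433, edgeR). In LL edgeR called 0 of the 6 at 1, 2 and 4 h, with 2, 2 and 1 at an unadjusted p under 0.05 and 0 by DESeq2, beside 10.4, 12.5 and 16.5% called over all genes. MBF1A and MBF1B, the 2 relatives of MBF1C that are known as constitutively expressed, had log2 fold changes of 0.24 and 0.30 at 1 h of HL and 0.32 and 0.46 at 1 h of LL, none of them 2-fold.

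Of 10 genes for regulators and partners of heat shock factors, 8 were tested in HL and 6 in LL. The HL calls were 2 rises and 1 fall after 1 h and then 1 rise and 1 fall each after 2 and 4 h, and the LL calls were 1 fall after 1 h and 2 falls after 4 h. Over all genes 9.01, 11.9 and 15.7% were called at 1, 2 and 4 h of HL and 10.4, 12.5 and 16.5% at these times of LL. With 6 or 8 genes tested, 1 call weighs much. Whether these counts exceed the share over all genes was not tested. ROF1, an FK506-binding co-chaperone known to bind HSP90 and to modulate HSFA2, was higher at 1 h (log2 1.79, adjusted p = 8.23e-07), 2 h (1.39, 1.27e-05) and 4 h of HL (1.22, 5.19e-05, edgeR). In LL its values were 0.87, 0.20 and -0.21 at these times, and the HL change minus the LL change was called at 2 h (1.24, adjusted p = 0.0302) and 4 h (1.45, 0.00405). ROF1 was thus called at each time of HL and at none of LL, where the 1 h value passed the p threshold (0.012) at less than 2-fold. DREB2C was higher at 1 h of HL (1.43, adjusted p = 0.0121) and lower at 4 h of LL (-1.72, 0.000437). Its 0 h means were 6.85 CPM (SD 4.57) in HL and 12.9 CPM (1.56) in LL. At 1 h they were 19.4 and 15.8 CPM, and at 4 h 4.61 and 3.91 CPM. For DREB2C the HL change minus the LL change was not called at 1, 2 or 4 h (adjusted p = 0.27, 0.165 and 0.347, edgeR). HSBP, a small protein that binds heat shock factors and damps them, was lower at 1 h (-1.36, adjusted p = 0.0447) and 4 h of LL (-2.15, 0.00236). Its starting levels were far apart, with means of 4.26 CPM (SD 0.743) in HL and 30.6 CPM (12.3) in LL at 0 h, and 5.76 CPM (5.54) in HL and 7.04 CPM (5.81) in LL at 4 h. MPK3, a stress-activated kinase, was lower at 1 h (-1.19, adjusted p = 0.00387), 2 h (-1.64, 0.000245) and 4 h of HL (-1.89, 6.31e-05). In LL its values were -1.09, -0.50 and -0.44 at these times, none called. The MPK3 means at 0 h were 16.6 CPM (SD 2.59) in HL and 8.65 CPM (3.95) in LL. Its HL change minus LL change was -0.09, -1.09 and -1.42 at 1, 2 and 4 h, none called (adjusted p = 0.972, 0.41 and 0.129, edgeR).

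Among the chaperone genes, which these factors are known to act on, most of the small heat shock protein genes and a part of the large chaperone genes were higher at 1 h. Over all genes 3.96, 4.71 and 7.51% were higher at 1, 2 and 4 h of HL and 3.42, 4.34 and 5.74% at the same times of LL. Of 10 small heat shock protein genes tested in HL, 8 were higher at 1 h, 8 at 2 h and 4 at 4 h, with median log2 fold changes of 2.44, 2.39 and 0.97 beside medians of 0, 0 and 0.04 over all genes. In LL, 7 of 9 were higher at 1 h, 4 at 2 h and 1 at 4 h, with medians of 1.60, 1.04 and -0.30 beside -0.04, -0.01 and -0.01 over all genes. The 4 higher at 4 h of HL were HSP17.4 (1.57, adjusted p = 3.72e-05), HSP17.8 (1.79, 4.89e-05), HSP17.6C (1.09, 0.0183) and HSP23.5 (2.67, 0.0318), and the one at 4 h of LL was HSP17.4 (1.24, 0.0172, edgeR). HSP23.5 rests on few counts, averaging 0.384 CPM (SD 0.666) at 0 h and 3.04 CPM (2.14) at 4 h of HL. The 4 higher at 2 h of LL were HSP17.4, HSP17.8, HSP17.6C and HSP17.6II, with log2 fold changes of 1.31 to 2.39. HSP18.2 was not called at 1 h of HL (-0.57) and was lower at 4 h of HL (-1.59, adjusted p = 0.0112) and at 2 h (-1.81, 0.00843) and 4 h of LL (-2.09, 0.00227). DESeq2 called 4 of these genes in place of 5, higher and lower together, at 4 h of HL and also at 2 h of LL. A larger change in HL than in LL was called for HSP17.8 (2.31, adjusted p = 0.0173) and HSP17.6A-CI (2.70, 0.0257) at 2 h. At 4 h edgeR called it for 0 of the 9, with 4 at an unadjusted p under 0.05 and 1 by DESeq2. Over all genes 2.42% were called with the larger change in HL at 4 h.

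Among 19 large chaperone and co-chaperone genes tested in HL, 11 were higher at 1 h, 8 at 2 h and 5 at 4 h, with medians of 1.46, 0.95 and 0.52 beside the same 0, 0 and 0.04 over all genes. Those not called at 1 h of HL include HOP1 (-0.37), HSP90.4 (-0.04) and cpHsc70-1 (-0.02). In LL, 6 of 18 were higher at 1 h and 3 at 2 h. Called falls in LL numbered 1 of 18 after 2 h and 3 after 4 h, beside 8.15 and 10.8% of all genes. Whether these falls exceed the share over all genes was not tested. The LL medians were 0.82, 0.48 and -0.23 beside -0.04, -0.01 and -0.01 over all genes. DESeq2 called 4 of the 19 in place of 5 at 4 h of HL. Of the 18 in LL it called 5 in place of 6 at 1 h, 2 in place of 4 at 2 h and 2 in place of 3 at 4 h. HSP101, HSC70-1 and HSC70-2, named below, lie at the 2-fold limit. The 5 higher at 4 h of HL were HSP70 (1.78, adjusted p = 6.43e-07), HOP3 (2.07, 3.13e-06), cpHsc70-2 (1.60, 0.000228), HSP101 (1.02, 0.00261) and HSP90.1 (1.94, 0.0186, edgeR). HSP90.1 rests on few counts, averaging 0.813 CPM (SD 0.286) at 0 h and 3.46 CPM (1.05) at 4 h of HL. The 3 lower at 4 h of LL were HSC70-3 (-1.34, adjusted p = 6.18e-05), HSC70-2 (-1.01, 0.00213) and HSP90.4 (-1.11, 0.0321). The 3 higher at 2 h of LL were HOP3 (1.77), HSP70 (1.56) and HSC70-1 (1.00), and HSP90.4 was lower (-1.38). HSP70, a heat-inducible cytosolic chaperone gene, averaged 109, 1160, 908 and 386 CPM at 0, 1, 2 and 4 h of HL, and 95.2, 656, 277 and 76.8 CPM at the same times of LL. Its level at 4 h was thus above that at 0 h in HL and near it in LL, and the HL change minus the LL change was 2.12 (adjusted p = 0.000637). At 4 h that difference was called for 8 of the 18 genes, all with the higher value in HL, beside 2.42% of all genes. Its median was 1.19 beside 0.02 over all genes. It holds falls in LL as well as rises in HL. HSC70-2 and HSC70-3, among the 8, were at 0.32 and 0.13 at 4 h of HL, not called, and at -1.01 and -1.34 at 4 h of LL. The HSC70 and HSP90 genes have near-identical copies, and how their reads were divided among the copies is uncertain.

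**Figure D5:**
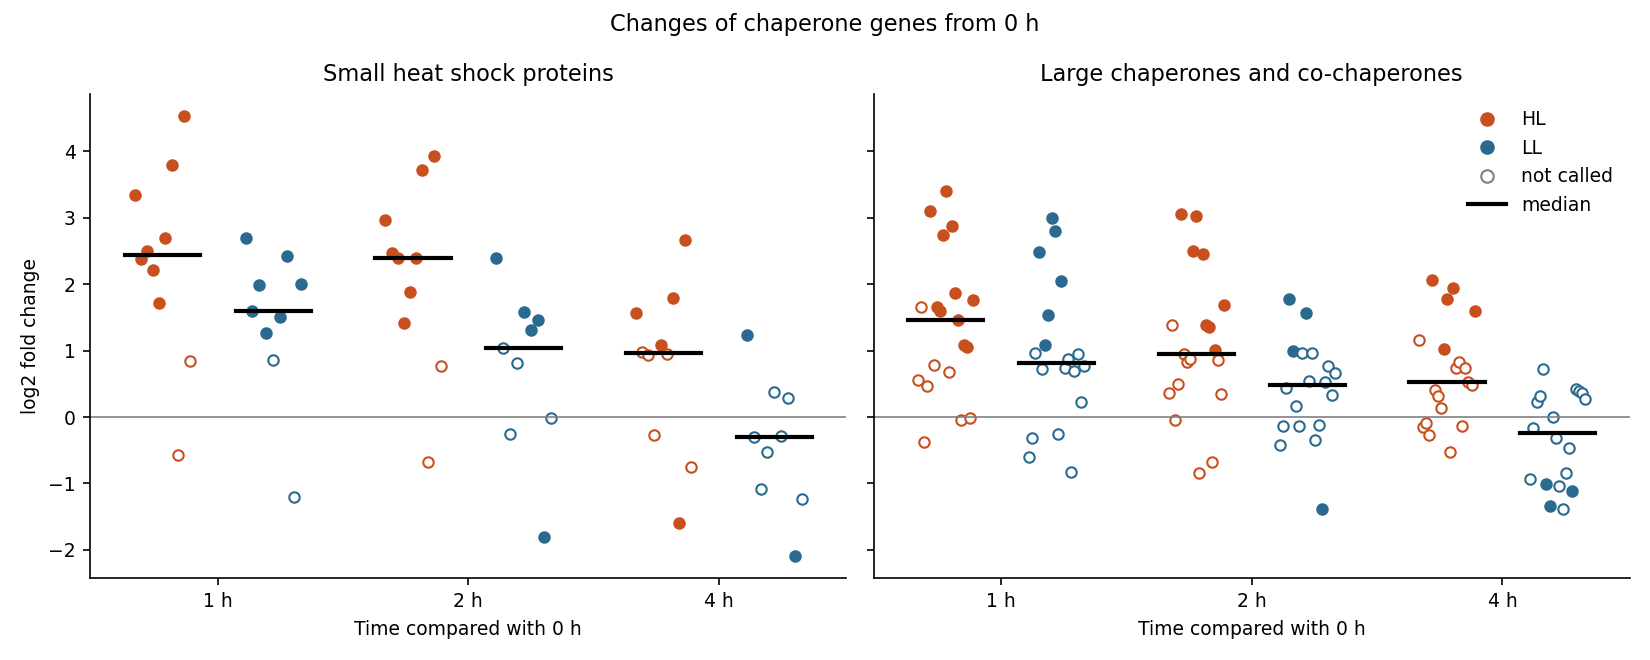
Log2 fold change from 0 h of each tested small heat shock protein gene (left) and large chaperone or co-chaperone gene (right) at 1, 2 and 4 h, with HL in orange left of LL in blue, filled points for called changes and black bars for medians. The medians of the small heat shock proteins at 4 h are 0.97 in HL and -0.30 in LL, and those of the large chaperones are 0.52 and -0.23.

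Of 8 other described targets, 4 were tested in HL and 3 in LL, and the called changes from 0 h were all lower. They were 0, 2 and 1 of 4 at 1, 2 and 4 h of HL, beside 5.05, 7.2 and 8.17% lower over all genes, and 0, 1 and 1 of 3 in LL, beside 7.01, 8.15 and 10.8%. ZAT12, a zinc finger factor of oxidative and light stress, was lower at 2 h (-1.49, adjusted p = 6.27e-06) and 4 h of HL (-1.54, 3.29e-06), and at 2 h (-1.41, 9.99e-06) and 4 h of LL (-1.68, 9.25e-07, edgeR). PDF1.2a, a defensin gene, was lower at 2 h of HL (-1.59, adjusted p = 0.0324).

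Some of the 7 genes overlap others in the TAIR10.1 annotation, and the sources used here do not say whether counting used the strand. MBF1C, at chr3:8918267-8919683 on the plus strand, shares 176 bases with the antisense RNA gene AT3G04685, 22 with AT3G24495 and 124 with AT3G24503, all on the minus strand. Over 3 libraries AT3G24503 summed to 220 counts in HL at 1 h against 146 in HL at 0 h (log2 fold change 0.38), and to 163 in LL at 1 h against 131 in LL at 0 h (0.40). HSFB2B shares 352 bases with AT4G05910 and 308 with AT4G11670, of which AT4G11670 summed to 12 counts in HL at 1 h against 5 in HL at 0 h (1.03), and to 4 in LL at 1 h against 15 in LL at 0 h (-1.73). HSFA3 shares 486 bases with AT5G03710. AT3G04685, AT3G24495, AT4G05910 and AT5G03710 have no row in either table and were not analysed here.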

How the data were processed

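Per the labels and the methods, the authors trimmed MARS-seq reads with cutadapt, mapped them with STAR 2.4.2a to Araport11 and made raw counts per gene with HTSeq-count, in 1 table per light level. Whether molecular identifiers were collapsed is not given in the sources used here. Deposited beside the counts are DESeq2-scaled signal values and regularised log2 values by the authors, used in no test here, and the authors' fold changes and p-values, not used at all. The authors kept genes by a minimum of reads in at least 1 sample, and every gene in either table reaches at least 6 counts in some library. All per-sample columns were matched by name, and 0 were left unlisted.

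Counts were fitted by edgeR 4.0.16 in R 4.3.3 (TMM, glmQLFit and glmQLFTest), with 12 libraries per light level for changes over time and 24 libraries over the 10349 shared genes for HL against LL, and p-values were adjusted over all genes of each fit. Alternatives were DESeq2 1.42.0, relative log expression scaling, filterByExpr, a replicate block, one fit of 24 libraries, no fold limit, and each library left out. The genes and lists were chosen with earlier results of these data known. All 10 genes are named, and of each list the 2 called genes with the smallest adjusted p each way at 4 h of each light level, plus any that a count of 5 or fewer called for. MBF1A, MBF1B, HOP1, cpHsc70-1 and the single shoot and root markers were added after their values were seen. So were the levels of HSP70, HSP23.5, HSP90.1, HSFC1, HSBP, DREB2C, MPK3, AT1G26800, AT2G20560 and NF-YC1. Likeness is Pearson's r over 8 group means of log2(CPM + 1), and the 5 closest genes are given for each gene called against 0 h. Locus tags of TAIR10.1 were found for 11656 of the 11747 identifiers, from which sequences, positions and symbols were taken. The window before the start codon was added after the window before the gene start had been seen to hold few matches. The methods describe biological replicates of pooled whole seedlings for RNA extraction and RT-qPCR, and for the sequencing libraries they do not say whether the replicates were grown or treated separately, so each p-value reflects only how these libraries spread, which may in part be technical. Replicates differed by more than counting error (chi-square per degree of freedom 2.28 to 8.58), and none was a copy of another. With 3 against 3 libraries an exact permutation test cannot go below 0.1, so none is given.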

Additional observations from a re-analysis of the deposited data

Results flagged for a closer look

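MBF1C changed differently in HL and in LL by a test of the difference itself. The HL change from 0 h minus the LL change was 2.27 ± 0.302 on the log2 scale at 2 h (adjusted p = 0.000214) and 2.55 ± 0.311 at 4 h (1.64e-05 in edgeR). Every HL library held more MBF1C than every LL library at both times.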

How the results depend on the processing

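DESeq2, relative log expression scaling and one fit of 24 libraries left the number of the 7 genes called within 1.5 times in each of the comparisons where they were run. With filterByExpr edgeR called 2 in place of 1 at 4 h against 2 h of HL (HSFA2 added, -1.33, adjusted p = 0.0468) and 2 in place of 1 for the HL change minus the LL change at 4 h (HSFB2B added). That filter gave 114 single values of a gene in a comparison, against 119 with DESeq2. It leaves HSFA2 out of the LL fit, where HSFA2 had 29 counts in 1 h replicate 1 and at most 7 in the others. The LL calls of HSFA2 therefore have no value under filterByExpr. With no fold limit 2 were called at 4 h of LL in place of 0, HSFA3 and HSFB1. With each library left out in turn, the number called ran from 0 to 2 at 4 h against 2 h of HL, from 0 to 1 at 4 h against 0 h of LL, from 1 to 3 at 2 h against 1 h of LL, from 0 to 1 at 4 h against 2 h of LL, from 1 to 2 for the HL change minus the LL change at 4 h, and from 1 to 2 for HL against LL at 4 h. The other counts that moved stayed within 1.5 times. They ran from 3 to 4 at 1, 2 and 4 h of HL against 0 h, and from 3 to 5 at 1 h of LL. For HL against LL at 2 h the count ran from 2 to 3. Among single values of a gene in a comparison, 21 of 840 lost their call with a library left out and 13 gained one, and 0 called values turned round. HSFB2B between 1 and 2 h of LL (-1.22, adjusted p = 0.0552) was called with relative log expression scaling (0.0474) and in the fit of 24 libraries (0.0159).

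Samples with the same replicate number did not deviate together (mean r 0.00964 over 84 pairs, lowest -0.372), so the numbers do not pair the samples. With the replicate block 2 of the 7 genes were called in place of 3 at 2 h against 1 h of LL, where HSFA2 had an adjusted p of 0.0676 (log2 -2.85), and DESeq2 gave HSFA2 no adjusted p there. The block changed no other call of the 7 genes, and over all genes it gave 1025 calls at 1 h of HL in place of 1006 and 319 for the HL change minus the LL change at 4 h in place of 302.

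HSFA2 and HSFA1A, with at most 29 counts in a library, are the genes whose values depth limits most. The cause of the changes with filterByExpr and with single libraries was not tested.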
